A study of Mus musculus with 29 samples.

Results

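The lysosomal genes described here are 44 genes for lysosomal enzymes, their cofactors, lysosomal membrane proteins, subunits of the proton pump and the transcription factor Tfeb. They were chosen by name, with earlier results of these data known, as the genes of the count tables whose Ensembl IDs map to these mouse symbols. All 44 were found among 25746 genes. By role they comprise 12 proteases, 10 glycosidases and lysozyme, 8 lipid hydrolases, cofactors and cholesterol exporters, 8 membrane proteins, 5 proton pump genes and 1 transcription factor. All 44 passed the filter on low counts that left 17031 genes for testing. Atp6v0d2 passed it only through the stroked groups, since at most 1 read per library was counted in non-stroked brain.

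Lysosomes are acidic organelles in which cathepsins and other hydrolases break down proteins, glycans and lipids taken up from outside the cell or delivered by autophagy. A proton pump, the V-ATPase, keeps the lumen acidic, and membrane proteins such as Lamp1 line the organelle. In the brain every cell type has lysosomes, and microglia and macrophages, which clear debris after injury, are rich in them. TFEB, a member of the MiT/TFE family, binds the E-box CACGTG in many promoters of lysosomal genes.

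Expression was measured by RNA sequencing of brain tissue in 29 samples of 8 groups, each taken as 1 mouse, which the labels do not state, to ask how stroke changes gene expression in immunodeficient and immunosuppressed mice. WT mice had a C57BL/6 background. Rag2-/- mice lack mature B and T lymphocytes, and NSG mice, on a NOD background, lack these and natural killer cells. All were 3 months old and of both sexes, and the stroked mice had received a photothrombotic stroke of the right sensorimotor cortex and were analysed at 21 days post injury (dpi). The non-stroked groups held 4 WT, 3 Rag2-/- and 4 NSG mice, and the stroked groups without drug held 4 WT, 3 Rag2-/- and 3 NSG mice. A further 3 stroked WT mice received tacrolimus, a calcineurin inhibitor that blocks T cell activation, by osmotic pump from 0 dpi (WT-Tacr acute), and 5 received it from 7 dpi (WT-Tacr delayed). No non-stroked mouse received tacrolimus, so both WT-Tacr groups were compared with the 4 non-stroked WT mice that also serve stroked WT mice. Whether the non-stroked samples were naive brain or the uninjured side could not be settled from the labels, so a non-stroked sample may share an animal with a stroked one. For RNA sequencing the paper lists 4 NSG and 4 tacrolimus mice, fewer than the libraries of either kind here, and more Rag2-/- mice than libraries. All samples were fitted as independent, so any sharing of animals was not modelled. Values are CPM, the reads of a gene scaled to a common library size after TMM normalization, unless stated otherwise. A gene was called when its Benjamini-Hochberg adjusted p, over all genes tested with edgeR's quasi-likelihood test, was below 0.05. Errors of log2 fold changes are standard errors.

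Library totals ranged from 17789044 to 43403413 counts. The sample names mark a pair of cohorts, Imm2 with 20 libraries (median total 37223696) and TF with 9 (median 23155303). All non-stroked mice were in Imm2 and all WT-Tacr delayed mice in TF, so for that group stroke and cohort can be separated only through the WT and WT-Tacr acute mice present in both. No reads of Rag2 were counted in any library but 1 stroked WT library, with 2, so the gene could not be used to check the Rag2-/- labels. Il2rg, which is disrupted in NSG mice, still had 22 to 37 counts in each NSG library. Without stroke its range in NSG mice overlapped that of WT mice. With stroke it was lower in NSG mice, at 0.784 to 0.979 CPM against 2.11 to 3.46 CPM in WT mice. Of the 6 T cell markers, Cd3d, Cd3g and Cd8a were at 0 in all NSG libraries, and Cd3e in the non-stroked ones. Cd3d was also at 0 in non-stroked WT mice and in all Rag2-/- mice, and Cd3g in non-stroked Rag2-/- mice. Cd4 and Lck were not lower in non-stroked NSG than in non-stroked WT mice (log2 fold changes 1.47 and 0.66, neither called). Summed, the 6 markers had a median of 22.0 CPM in non-stroked NSG and 9.12 CPM in non-stroked WT mice, with overlapping ranges. Neuronal markers summed to between 4921 and 8765 CPM in every library. Choroid plexus markers varied from 4.54 to 1573 CPM, with ranges that overlapped between the groups compared. WT-Tacr acute replicates 1 and 2 stood apart from all other stroked mice: their 9 myeloid markers summed to 241 and 186 CPM and their 5 fibroblast markers to 63.4 and 31.4 CPM, against 705 and 382 CPM in replicate 3. Non-stroked WT mice had 138 to 165 CPM of the myeloid and 28.4 to 41.9 CPM of the fibroblast markers. The names of the count files of replicates 1 and 2 differ from their sample titles, and the deposit's own link between file and sample was followed. Results on WT-Tacr acute mice are given with and without replicate 3, a split chosen after these marker levels were seen.

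Before the values, the promoters show which members carry the E-box. Of the 44 genes, 38 had a RefSeq promoter window (GRCm38.p6, 250 bases before to 50 after the start), and 14 of these (36.8%) held CACGTG, compared with 8.05% of the 26987 other genes with a window. The extended form TCACGTG, searched like the core on both strands and containing it, was present in 12 of 38 (31.6%) and in 4.25% of other genes. Ctsb, Ctsh, Atp6v1b2, Npc1, Atp6v0d2 and Asah1 had no window. The sites of 8 members, chosen to show each role that has the motif and, where a gene has several, the site nearest to its start among those lying before it, read as follows on the strand of the gene, with the E-box in capitals.
Ctsd, chr7:142387910-142387935: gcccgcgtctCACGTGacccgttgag
Ctsa, chr2:164833751-164833776: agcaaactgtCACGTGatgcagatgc
Naglu, chr11:101070011-101070036: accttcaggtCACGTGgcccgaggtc
Gla, chrX:134601184-134601209: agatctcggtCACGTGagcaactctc
Glb1, chr9:114401020-114401045: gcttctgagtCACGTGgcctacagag
Lamp1, chr8:13159136-13159161: gtgaccacatCACGTGcggaacggag
Mcoln1, chr8:3500464-3500489: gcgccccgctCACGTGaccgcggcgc
Atp6v0d1, chr8:105566052-105566077: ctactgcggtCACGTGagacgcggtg
The site of Ctsd lay 98 bases before the start, that of Naglu 73, that of Lamp1 15 and that of Atp6v0d1 3. Lamp1, which codes for a main glycoprotein of the lysosomal membrane, held 4 sites in its window. The motif is a match of letters and not a measurement of binding.

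After stroke in WT mice most lysosomal genes were higher. Of the 44 members 33 were higher and 0 lower at 21 dpi, with a median log2 fold change of 0.57 against 0.00 over all genes tested, where 15.2% were higher. By the stricter count that also asks for a change above 2-fold, 16 members were higher, compared with 6.76% of all genes. In 29 members every stroked mouse lay above every non-stroked mouse, a separation found for 16.3% of all genes. Atp6v0d2, which passed the filter only through the stroked groups, is part of these counts and of the members called in the other stroke comparisons. The 10 members called in none of the WT, Rag2-/- and NSG strains were Gaa, Npc1, Neu1, Smpd1, Mcoln1, Ppt1, Atp6v0d1, Atp6v1a, Atp6v1b2 and Atp6ap1. With cohort as a covariate 26 members were higher (median 0.34), where 7.42% of all genes were. Within the Imm2 cohort alone, where 2 stroked WT mice remained, 22 were higher (median 0.38), against 6.51% of all genes.

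All 12 proteases were higher after stroke in WT mice, with log2 fold changes from 0.27 to 2.09 and a median of 1.40. Ctss (ENSMUSG00000038642, chr3:95526786-95556403 in GRCm38) codes for cathepsin S, a cysteine protease of antigen presenting cells. It was measured at 53.9, 44.8, 55.9 and 55.9 CPM in the 4 non-stroked WT mice and at 214, 216, 228 and 240 CPM in the 4 stroked ones. The groups did not overlap and the stroked mice differed little among themselves, giving 4.26-fold higher expression (log2 2.09 ± 0.30, adjusted p = 4.54e-05, edgeR). Ctsk, the neighbouring gene on chromosome 3 and the collagen-degrading cathepsin of osteoclasts, rose from 2.73, 3.43, 2.07 and 2.58 CPM to 8.46, 11.6, 13 and 12.7 CPM (4.22-fold, log2 2.08 ± 0.37, adjusted p = 0.000263, edgeR). Ctsh and Ctsc, both aminopeptidases, were 3.61-fold and 3.53-fold higher, and Ctsd, the main aspartic protease of lysosomes, 3.19-fold. Ctsd shares 808 exonic bases on the same strand with the annotated gene Gm49369, and its counts could be divided between both. At the other end of the proteases, Tpp1, a tripeptidyl peptidase, was at 84.8, 85.5, 84.3 and 85.3 CPM without stroke and 97.9, 108, 99.2 and 103 CPM with it, a 1.2-fold difference that was nonetheless larger than the spread of either group (adjusted p = 0.0233, edgeR). Ctsa, a carboxypeptidase that protects other lysosomal enzymes, rose 1.6-fold from 83.3 to 89.0 CPM without stroke to 130 to 156 CPM with it.

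Of the 10 glycosidases and lysozyme, 8 rose, Gaa and Neu1 being the exceptions. Lyz2 (ENSMUSG00000069516, chr10:117277331-117282321), the lysozyme of macrophages and neutrophils, showed the largest change of any member with more than a few reads in non-stroked brain. It stood at 2.73, 3.21, 4.16 and 4.12 CPM in non-stroked WT mice and at 120, 146, 325 and 474 CPM in stroked ones. Within the stroked group the TF mice (replicates 3 and 4) were above the Imm2 mice (replicates 1 and 2). The fitted difference was 74.7-fold (log2 6.22 ± 0.87, adjusted p = 3.37e-05, edgeR) and the log2 fold change was 5.23 ± 0.36 within Imm2. Reads of Lyz2 and of its near copy Lyz1 may have been divided between the pair. Gusb, the β-glucuronidase, rose 2.34-fold from 9.71, 13, 11.1 and 9.65 CPM to 18.8, 19.3, 29.2 and 34.7 CPM (adjusted p = 0.000508, edgeR), again with the TF mice on top. Naglu, which degrades heparan sulfate, went from 6.49, 6.67, 7.85 and 6.65 CPM to 14.4, 12.3, 15.0 and 18.9 CPM (2.19-fold, adjusted p = 0.000106, edgeR). Gaa, the acid α-glucosidase that degrades glycogen, had a log2 fold change of -0.16 ± 0.12 (adjusted p = 0.303, edgeR) and Neu1, the lysosomal sialidase, of -0.11 ± 0.10 (adjusted p = 0.388, edgeR).

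Among the lipid hydrolases, cofactors and cholesterol exporters 5 of 8 rose. Npc2, the soluble carrier that binds cholesterol in the lumen, increased 2.41-fold from 33.5, 36.8, 37.1 and 32.1 CPM to 65.0, 66.6, 101 and 103 CPM (adjusted p = 8.47e-05, edgeR). Its membrane partner Npc1, which passes the cholesterol on, had a log2 fold change of 0.02 ± 0.08 (adjusted p = 0.872, edgeR). Only the soluble carrier of that pair passed the test, and the difference between the 2 genes was not itself tested. Grn, the precursor of the granulins, was 2.26-fold higher, at 93.2, 80.3, 116 and 148 CPM against 49.7, 50.3, 48.9 and 44.6 CPM (adjusted p = 0.00032, edgeR). Asah1, the acid ceramidase, showed one of the smaller called differences, from 48.9, 50.2, 51.8 and 53.0 CPM to 57.4, 66.2, 64.2 and 67.1 CPM (1.25-fold, adjusted p = 0.00478, edgeR). Psap, the precursor of the saposins, and Lipa, the acid lipase, were 1.27-fold and 1.61-fold higher, whereas Smpd1 and Ppt1 had log2 fold changes of 0.02 and 0.01.

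Of the 8 membrane proteins 6 rose. Cd68 (ENSMUSG00000018774, chr11:69664213-69666153), the glycoprotein used to stain phagocytes, increased 5.1-fold from 11.1, 9.33, 10.6 and 8.93 CPM to 46.4, 50.8, 46.2 and 60.3 CPM (log2 2.35 ± 0.36, adjusted p = 7.02e-05, edgeR). Cd63, a tetraspanin of late endosomes, rose 2.79-fold from 25.5, 26.3, 33.5 and 28.6 CPM to 65.5, 64.9, 88.4 and 98.9 CPM (adjusted p = 0.000194, edgeR). Laptm5, a membrane protein of blood-derived and other immune cells, was 2.53-fold higher, at 87.5, 77.5, 81.4 and 103 CPM against 36.1, 31.1, 37.5 and 33.7 CPM (adjusted p = 5.81e-05, edgeR). In none of these did stroked and non-stroked WT mice overlap. Lamp1, found in the lysosomes of all cells, rose only 1.33-fold, and the calcium channel gene Mcoln1 had a log2 fold change of -0.16 ± 0.08 (adjusted p = 0.113, edgeR).

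**Figure D1:**
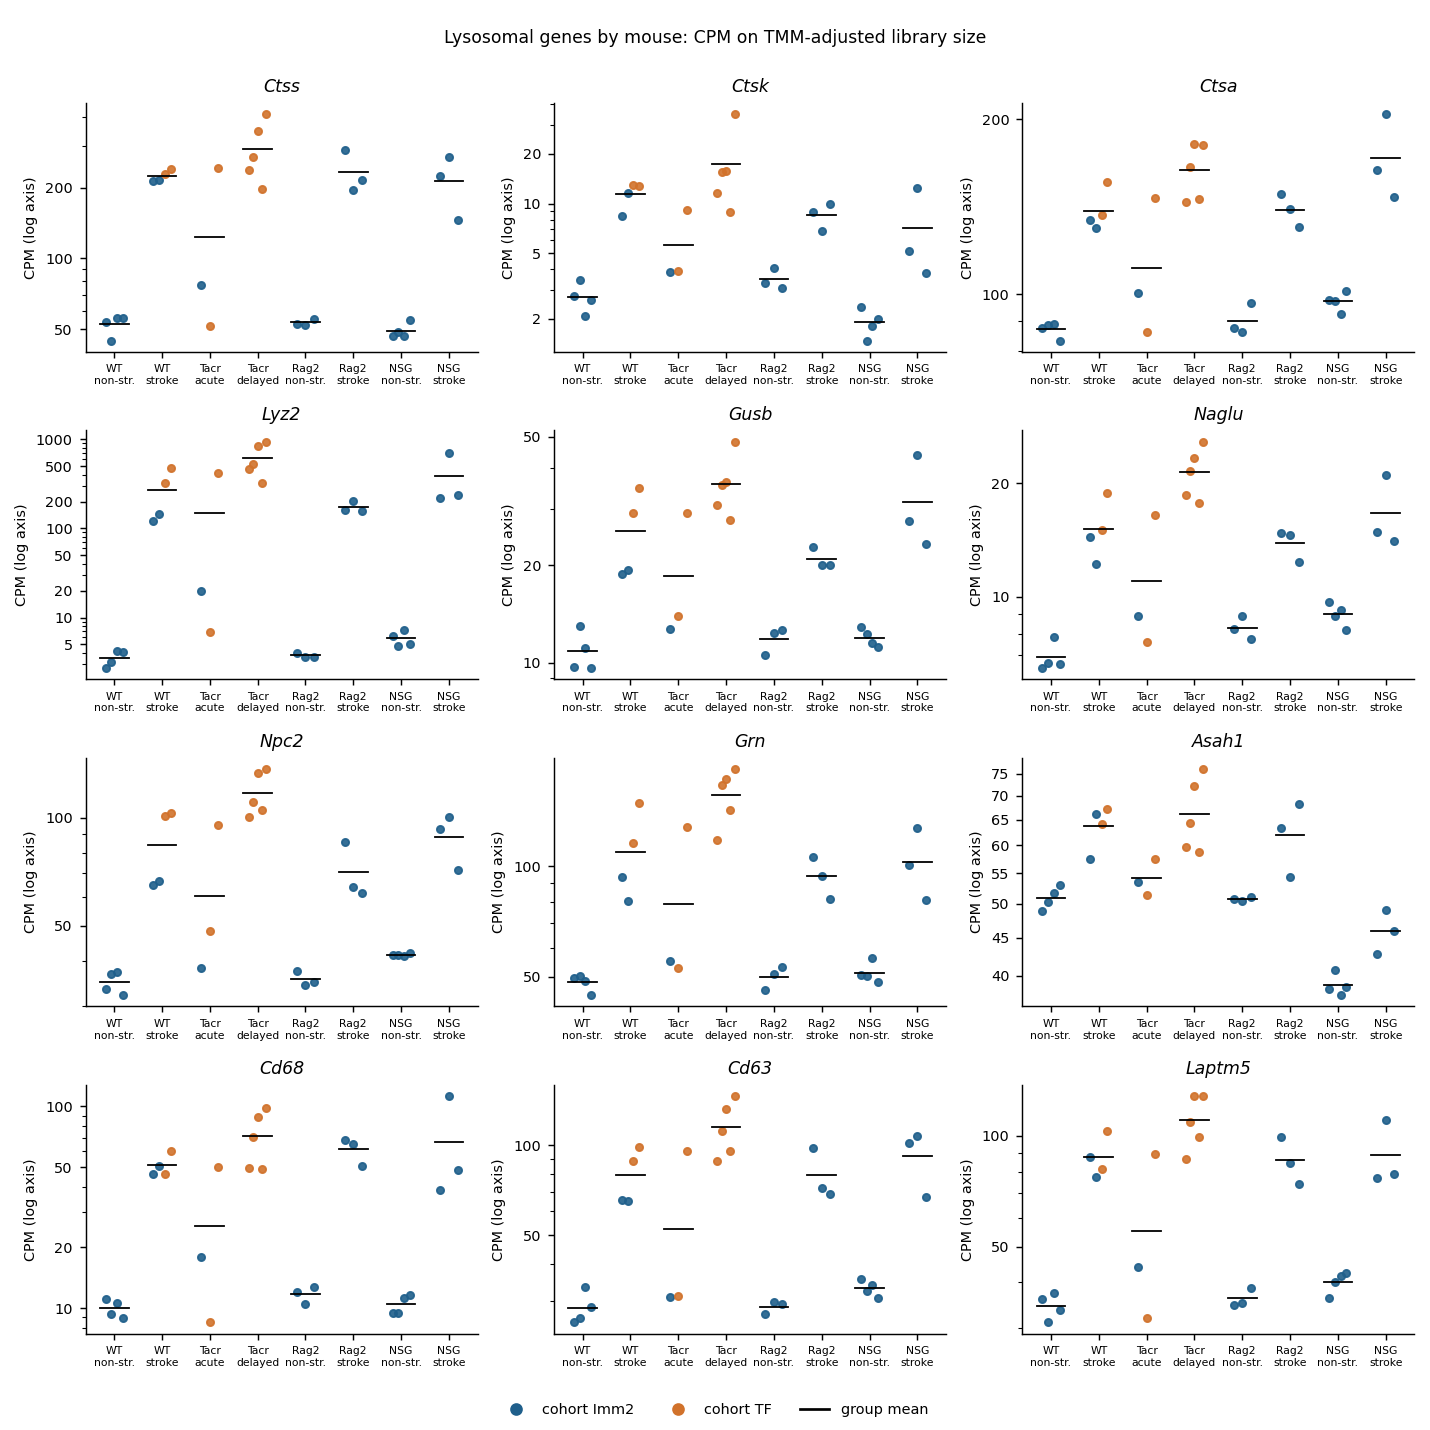
CPM of 12 lysosomal genes on a log axis, 1 point per mouse in 8 groups, coloured by cohort (Imm2 or TF), with a line at each group mean. Ctss lay between 44.8 and 55.9 CPM in non-stroked WT mice and between 214 and 240 CPM in stroked ones, and of the WT-Tacr acute mice only replicate 3, at 241 CPM, reached that range.

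Of the 5 proton pump members 1, Atp6v0d2, was higher after stroke in WT mice, and it alone was called higher in each of the 4 other stroke comparisons. In WT-Tacr acute mice that call rested on replicate 3, since the 3 mice had 36, 0 and 349 counts and without replicate 3 the gene was not called (adjusted p = 0.218, edgeR). Because Atp6v0d2 passed the filter on low counts only through the stroked groups, the direction of its calls was fixed in advance. Subunit d of the pump is coded by a pair of genes, Atp6v0d1, which most tissues use, and Atp6v0d2 (ENSMUSG00000028238, chr4:19876841-19922605), known from osteoclasts, kidney and macrophages. Atp6v0d2 had 1, 1, 0 and 0 counts in the non-stroked WT mice and 237, 296, 318 and 563 counts in the stroked ones, or 5.98, 8.22, 13.8 and 17.2 CPM. The ratio of 1414 to 2 counts, scaled to library size, was 786-fold with an exact 95% interval of 217 to 6495 that covers counting error only. In Rag2-/- mice the count went from 0 in all 3 non-stroked mice to 275 to 341, at least 290-fold higher with 3 counts over the group as the floor. In NSG mice it went from 1 count in 4 mice to 192, 1167 and 254 counts (2021-fold, exact 95% interval 362 to 79872). Atp6v0d1 was at 164, 164, 170 and 161 CPM in non-stroked and 170, 156, 167 and 173 CPM in stroked WT mice (log2 fold change 0.01 ± 0.10, adjusted p = 0.934, edgeR). Divided by exonic length, Atp6v0d1 stood at 91.9 and 92.8 CPM per kb before and after stroke, and Atp6v0d2 at 0.00513 and 4.16, so Atp6v0d1 remained the more abundant of the pair by far.

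The other 15 pump genes tested, beside 16 listed, gave 2 higher and 1 lower in stroked WT mice, with a median log2 fold change of 0.06. Tcirg1, which codes for the a3 subunit that osteoclasts use, rose by 1.55 on the log2 scale, from 8.26 to 10.1 CPM without stroke to 16.9 to 38.1 CPM with it (adjusted p = 0.000424, edgeR). Atp6v0e had a log2 fold change of 0.79. Atp6v0a1, coding for the a1 subunit that neurons use, was lower, with a log2 fold change of -0.43. Of 7 tested genes of osteoclasts and multinucleated macrophages, 1 rose, Acp5, the tartrate-resistant acid phosphatase, from at most 0.228 CPM to between 3.47 and 5.25 CPM, and Dcstamp, needed for the fusion of osteoclasts, had a log2 fold change of 0.79 (adjusted p = 0.657, edgeR).

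**Figure D2:**
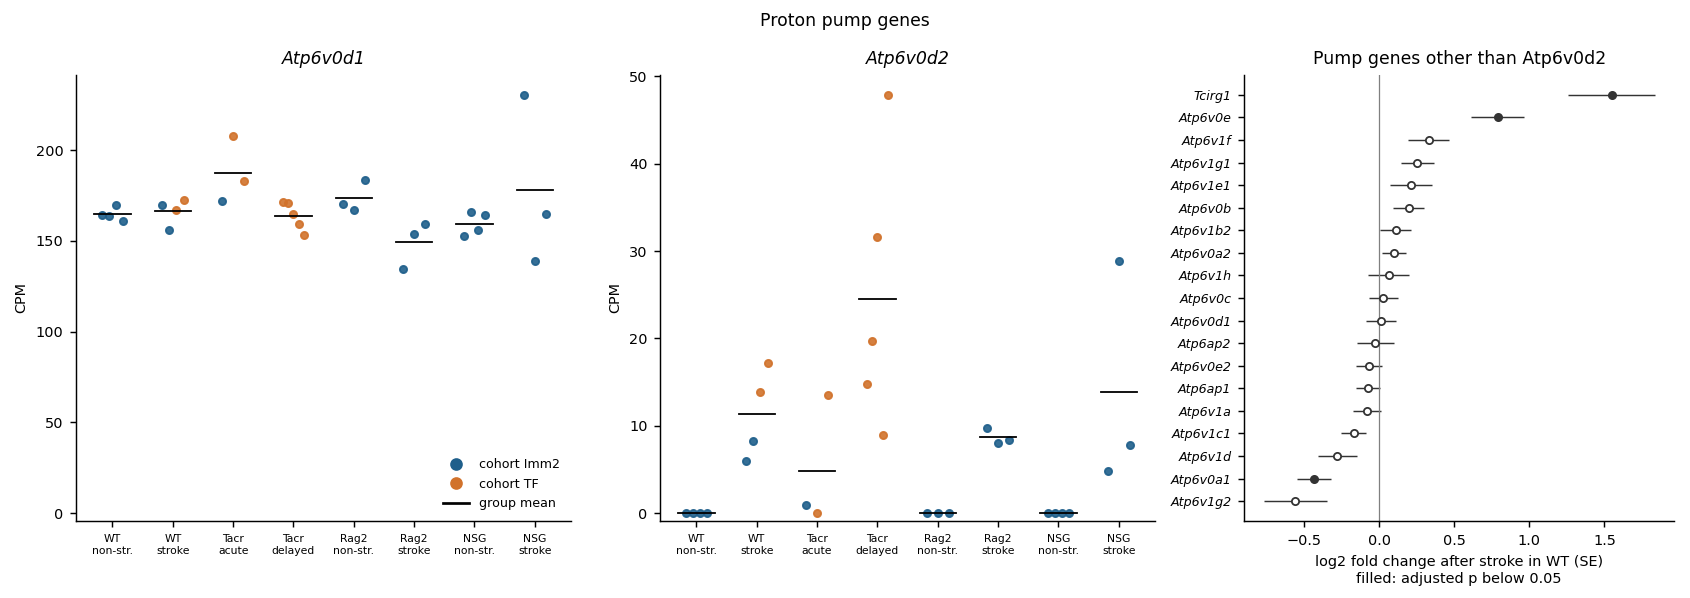
Left, CPM of Atp6v0d1 and Atp6v0d2 by mouse and group, and right, log2 fold change after stroke in WT mice with its standard error for the 19 tested genes of the proton pump other than Atp6v0d2, open where the adjusted p was 0.05 or more. Atp6v0d2 went from at most 1 count per library to between 5.98 and 17.2 CPM in stroked WT mice, while Atp6v0d1 stayed between 156 and 173 CPM in them.

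Tfeb (ENSMUSG00000023990, chr17:47737030-47792419) was at 6.95, 7.78, 7 and 6.49 CPM without and 9.29, 8.45, 10.7 and 8.83 CPM with stroke in WT mice. The groups did not overlap, and the difference was small and near the threshold (1.32-fold, adjusted p = 0.035, edgeR). With cohort as a covariate it was no longer called (adjusted p = 0.184, edgeR). Tfeb was also called in WT-Tacr delayed mice (1.48-fold, adjusted p = 0.000998, edgeR) and in NSG mice (1.52-fold, adjusted p = 0.00562, edgeR), but not in Rag2-/- mice (1.13-fold, adjusted p = 0.578, edgeR). Of 10 MiT/TFE and autophagy genes, 1 rose and 1 fell in stroked WT mice. Tfec, the family member of macrophages, went from 0 counts in all 4 non-stroked mice to 38 counts over the 4 stroked ones, at least 14.1-fold higher against a floor of 3 counts over the group. Non-stroked Rag2-/- and NSG mice had 4 counts of it over each group. Like Atp6v0d2, Tfec thus passed the filter on low counts only through stroked groups, and the direction of its call was fixed in advance. The autophagy kinase gene Ulk1 had a log2 fold change of -0.41. Tfe3 (-0.06), Mitf (0.20), the autophagy receptor gene Sqstm1 (0.06) and Map1lc3b (0.11) did not pass the test. Of the members with the E-box in the promoter window, 10 of 14 were higher, with a median log2 fold change of 0.36 and a range from -0.16 to 1.67. Of the 24 without it 19 were higher, with a median of 0.70. Whether members with and without the E-box differed was not tested.

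Levels per exonic length placed the changes in proportion. That length counts all annotated exons of a gene over its transcripts, which can exceed the transcript expressed. The order of members by level depends on it. In non-stroked WT mice Psap was the most abundant member at 437 ± 17 CPM per kb (SD, n = 4), followed by Ctsd at 128, Lamp1 at 106, Atp6ap1 at 105 and Ctsb at 101. After stroke Psap (554 CPM per kb) and Ctsd (409) still led, and Lyz2 had moved from place 34, at 2.70 CPM per kb, to place 3, at 202. Ctss rose from place 11 to place 4, at 165 CPM per kb. Of the 43 members other than Atp6v0d2, ranked by level in the non-stroked Rag2-/- mice, the lower 21 had a median log2 fold change of 1.13 after stroke in WT mice and the upper 22 one of 0.29. Over the 43 genes Spearman's rho between that level and the change was -0.37, a description across genes that share libraries and are not replicates.

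**Figure D3:**
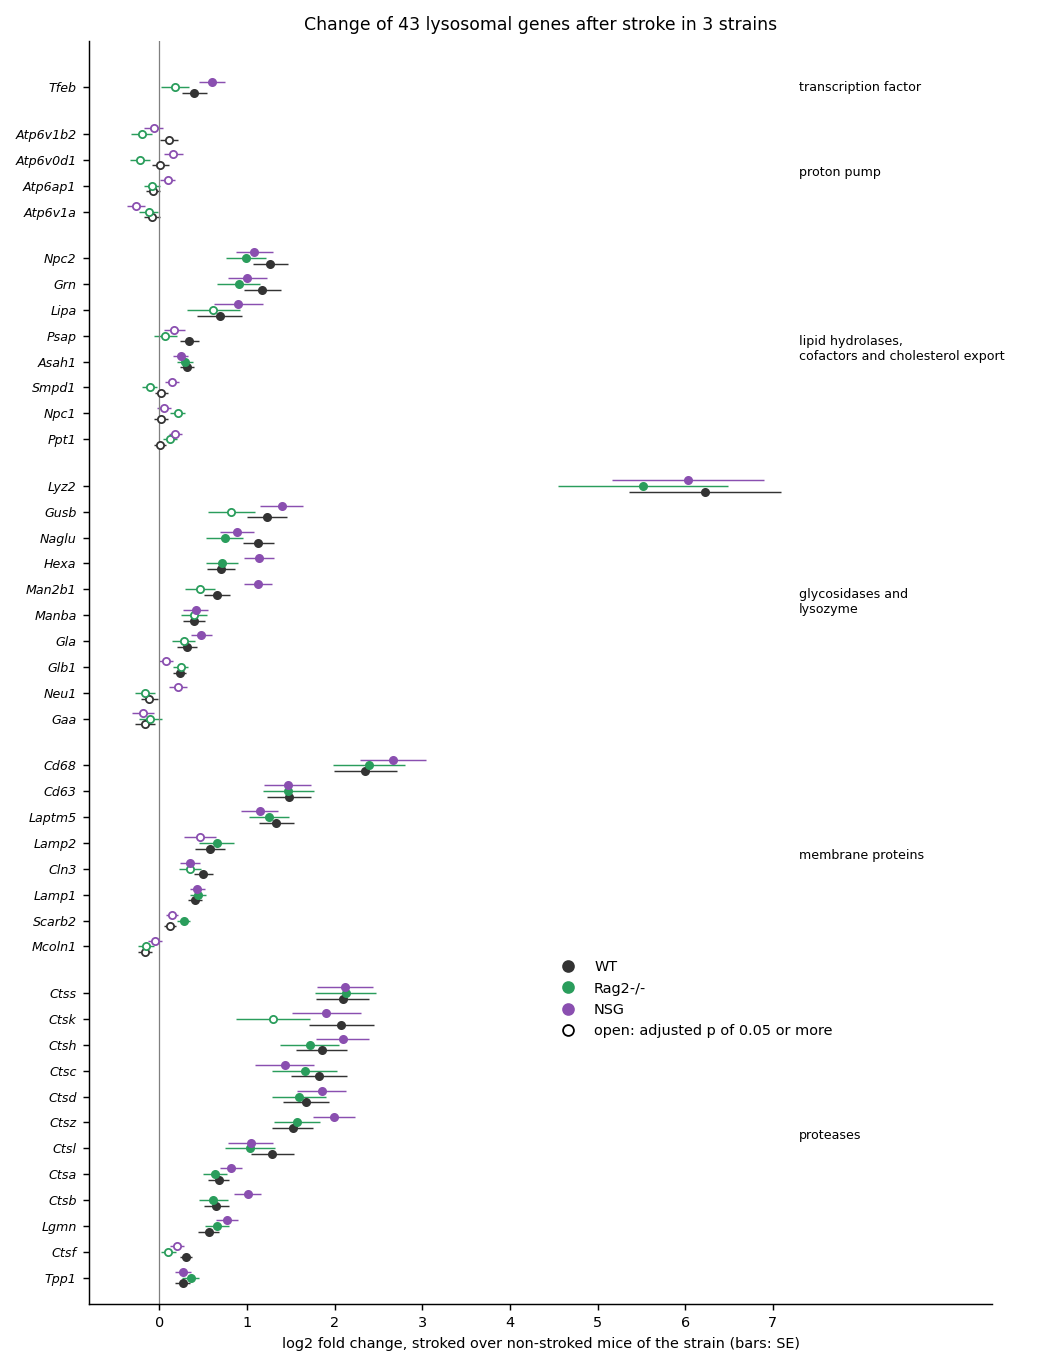
Log2 fold change after stroke with its standard error in WT, Rag2-/- and NSG mice for 43 lysosomal genes, all members but Atp6v0d2, ordered by role, with open symbols where the adjusted p was 0.05 or more. Proteases reached 2.09 in WT mice and Lyz2 6.22, and the 4 pump genes shown lay between -0.08 and 0.11 in WT mice.

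Genes of the same pathways outside the set of 44 gave a mixed picture. Of 27 other hydrolases and cofactors tested, 13 rose and 0 fell in stroked WT mice (median log2 fold change 0.30), among them Acp5 (4.73) and the nuclease gene Dnase2a (1.58). Of 15 other membrane proteins 6 rose and 2 fell: the metal transporter gene Slc11a1, known from phagocytes, rose by 2.62 on the log2 scale, Lamp5, a neuronal family member, had a log2 fold change of -0.89, and Laptm4a rose by 0.56. Genes that tag hydrolases with mannose 6-phosphate and sort them to the lysosome were divided, with 2 of 9 higher (Nagpa, 0.40, and Gnptg, 0.24) and 2 lower, Sort1 (-0.37) and Gga3 (-0.35). The cystatins, which inhibit cathepsins, rose in 3 of 4 tested: Cst7 (log2 fold change 5.83), Cstb (0.92) and Cst3 (0.76). The fold of Cst7 rests on a low base, with 1 count over the non-stroked NSG mice. It may have passed the filter on low counts only through stroked groups, in which case the direction of its call was fixed in advance.

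Cell type markers changed beside the lysosomal genes. All 9 myeloid markers rose in stroked WT mice (median log2 fold change 2.13), from summed levels of 138 to 165 CPM to 576 to 766 CPM, among them Tyrobp (2.76). Of homeostatic microglial markers 7 of 9 rose (Fcrls 1.58), of border-associated macrophage markers 4 of 5 (F13a1 2.03), of neutrophil markers 2 of 3 tested (S100a9 2.38), of T cell markers 4 of 5 (Cd3g 4.52), and all 7 astrocyte markers (Vim 2.90) and all 5 fibroblast markers (Col3a1 4.76). Cd3g had few or no reads in non-stroked mice and passed the filter on low counts only through stroked groups. The direction of its call was thus fixed in advance, and its fold rests on a base near 0. Neuronal markers fell in 5 of 9 (Nefm -0.81), from 7963 to 8765 CPM in sum to 5404 to 7318 CPM, and endothelial markers in 3 of 5 (Flt1 -0.95). None of the 6 oligodendrocyte, 3 B cell, 5 choroid plexus and 4 erythroid markers tested was called in WT mice, where 0, 1, 0 and 1 of them had an unadjusted p below 0.05. In bulk tissue more cells of a type and more RNA per cell cannot be told apart, and the part of the cell makeup in the lysosomal changes was not tested.

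**Figure D4:**
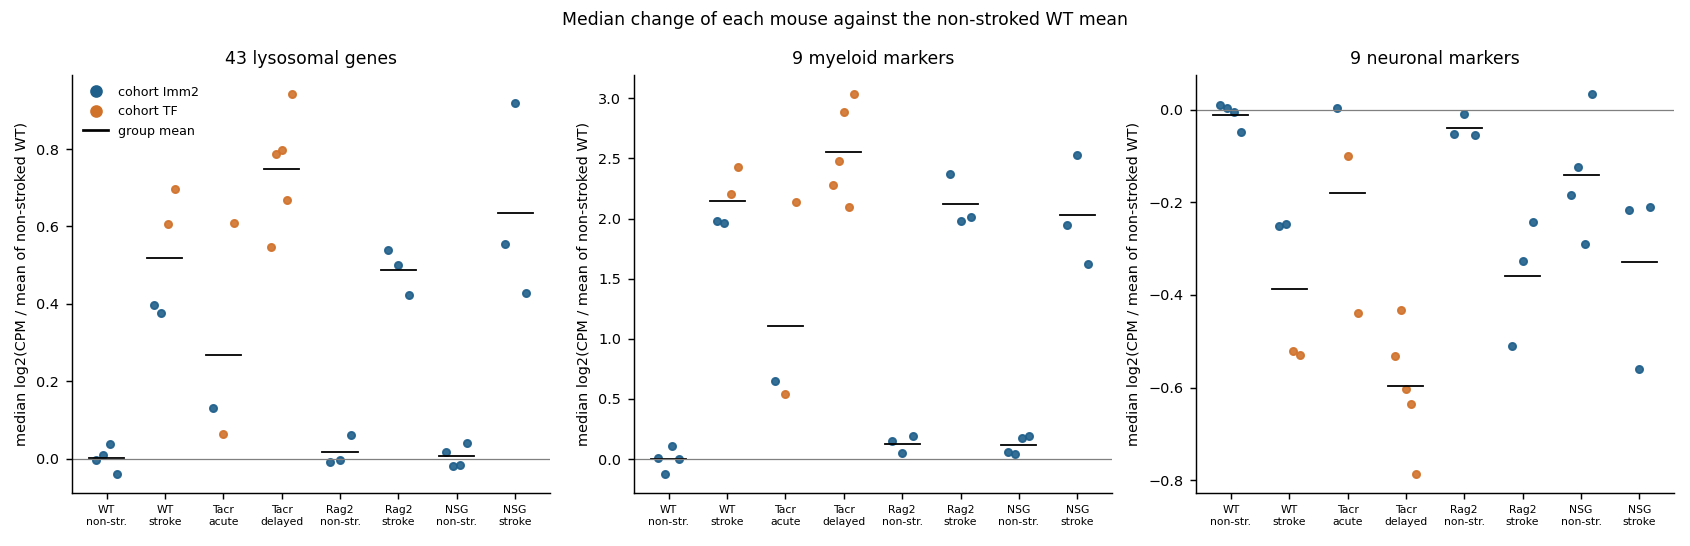
For each mouse, the median over genes of the log2 ratio of its CPM to the mean of non-stroked WT mice, for 43 lysosomal genes, 9 myeloid markers and 9 neuronal markers. The lysosomal median lay between -0.04 and 0.06 in all non-stroked mice and between 0.38 and 0.94 in stroked mice other than WT-Tacr acute replicates 1 and 2, at 0.13 and 0.06.

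In Rag2-/- mice 23 of the 44 genes were higher after stroke and 0 lower, with a median log2 fold change of 0.54, where 6.71% of all genes were higher. Above 2-fold were 11 members, against 4.22% of all genes. The 3 stroked mice lay above all 3 non-stroked mice for 32 members, a pattern found for 18.8% of all genes. The proteases again led, with 10 of 12 higher, Ctsf and Ctsk excepted. Ctss rose from 52.8, 52.1 and 55.4 CPM to 290, 195 and 216 CPM (4.37-fold, adjusted p = 0.000596, edgeR) and Lyz2 from 3.99, 3.65 and 3.65 CPM to 159, 202 and 157 CPM (45.8-fold, adjusted p = 0.0011, edgeR). Cd68 rose from 11.9, 10.4 and 12.6 CPM to 68.3, 64.7 and 50.6 CPM (5.24-fold, adjusted p = 0.000903, edgeR). Ctsk lay at 3.28, 4.04 and 3.08 CPM without and 8.92, 6.79 and 9.93 CPM with stroke and just missed the threshold (adjusted p = 0.054, edgeR), although the groups did not overlap. Only 3 of 10 glycosidases and lysozyme were called here: Hexa, Naglu and Lyz2. Scarb2, the receptor that carries β-glucocerebrosidase to the lysosome, was called in Rag2-/- mice (1.21-fold) and not in WT mice (1.09-fold, adjusted p = 0.171, edgeR). The count fell to between 13 and 15 when any 1 of non-stroked replicates 1, 2 and 4 or stroked replicate 1 was left out. Myeloid markers summed to 158 to 176 CPM without and 548 to 827 CPM with stroke.

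In NSG mice 29 of 44 were higher and 0 lower (median 0.68), where 13% of all genes were higher, and 18 were above 2-fold, against 5.01% of all genes. Stroked mice lay above non-stroked ones for 30 members, against 13.6% of all genes. Ctss went from 46.7, 48.8, 46.7 and 54.9 CPM to 225, 271 and 146 CPM (4.34-fold, adjusted p = 9.78e-05, edgeR). Lyz2 went from 6.29, 4.75, 7.23 and 5.10 CPM to 219, 693 and 234 CPM (65.4-fold, adjusted p = 7.4e-05, edgeR), and Cd68 from 9.48, 9.47, 11.2 and 11.5 CPM to 38.5, 112 and 48.2 CPM (6.37-fold, adjusted p = 6.25e-05, edgeR). Replicate 2 was the highest of the 3 stroked NSG mice for each, and its myeloid markers summed to 900 CPM against 513 and 668 CPM in the others. Without it 26 members were higher (13.2% of all genes), 1 was lower (Atp6v1a, log2 fold change -0.34, with 10.6% of all genes lower) and the median was 0.52.

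Over the strains 21 members were higher in all of WT, Rag2-/- and NSG mice, as were 4.75% of all genes. WT and Rag2-/- mice shared 22, or 66.7% of the WT and 95.7% of the Rag2-/- calls, where over all genes these shares were 38.5% and 87.5%. WT and NSG mice shared 29, or 87.9% of the WT and 100% of the NSG calls, against 52.3% and 61.4% over all genes. The responses were then compared directly, as a difference of differences. For Rag2-/- against WT mice 0 of 44 members differed by edgeR, as did 0% of all genes, with 0 members at an unadjusted p below 0.05 (4.19% of all genes) and 0 called by DESeq2. For NSG against WT mice 0 members differed as well (0.0294% of all genes), with 2 at an unadjusted p below 0.05 (12.7% of all genes), Man2b1 (0.46 ± 0.22 on the log2 scale) and Neu1 (0.33 ± 0.14), and 0 by DESeq2. Standard errors of these differences were 0.10 for Ppt1 and Scarb2 and over 1 for Lyz2, so a 2-fold difference in response could not be resolved for Lyz2 at this number of mice.

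Without stroke a few members differed between NSG and WT mice, no more often than genes at large, and 0 between Rag2-/- and WT mice. NSG mice had less Tpp1, at 66.7, 56.3, 58.8 and 55.8 CPM against 84.8, 85.5, 84.3 and 85.3 CPM in WT mice, with no overlap (log2 -0.52 ± 0.09, adjusted p = 0.000134, edgeR). Asah1 was lower too, at 38.4, 40.8, 37.6 and 38.5 CPM against 48.9, 50.2, 51.8 and 53.0 CPM (log2 -0.39 ± 0.08, adjusted p = 0.00146, edgeR). Stroke did not remove the gap: stroked NSG mice had 42.8, 49.1 and 46.0 CPM of Asah1, below the 57.4 to 67.1 CPM of stroked WT mice, a difference not tested on its own. Manba, the β-mannosidase, was also lower (log2 -0.41, adjusted p = 0.0432, edgeR) and Ppt1, a thioesterase, higher (log2 0.23, adjusted p = 0.0291, edgeR), which makes 3 members lower and 1 higher where 4.92% of all genes were lower and 4.84% higher. For NSG against WT mice 7 of 44 members had an unadjusted p below 0.05 by edgeR, against 22.9% of all genes. Manba and Ppt1 were near the threshold, and 2 members remained called when any 1 of WT replicates 1, 4 and 5 or NSG replicates 2 and 4 was left out. In Rag2-/- mice 0 members differed from WT mice without stroke by edgeR or DESeq2, where 0.00587% of all genes differed, and 0 had an unadjusted p below 0.05 (2.05% of all genes).

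With tacrolimus from 7 dpi the median lysosomal change was the highest of the 5 stroke comparisons in the main fit, a ranking that depended on cohort. In WT-Tacr delayed mice 33 members were higher and 2 lower than in non-stroked WT mice (27.6% of all genes were higher and 27.6% lower), with a median log2 fold change of 0.83, and 18 were above 2-fold (11.5% of all genes). The lower ones were Neu1 (log2 -0.26 ± 0.09, adjusted p = 0.0192, edgeR) and Mcoln1 (-0.18 ± 0.07, adjusted p = 0.036, edgeR). Lyz2 reached 458, 521, 829, 323 and 936 CPM and Cd68 49.3, 70.7, 89.0, 48.9 and 98.4 CPM. For both genes replicates 3 and 5 were the highest, and myeloid markers summed to 715 to 1112 CPM in this group. With cohort as a covariate 23 members were higher (5.71% of all genes) and 1 was lower (Atp6v1a, with 3.29% of all genes lower), with a median of 0.55. That median was below the 0.68 of NSG mice in the main fit, whose stroked and non-stroked mice were all in Imm2. Compared with stroked WT mice without drug, 0 of 44 members differed by edgeR (0% of all genes), with 14 at an unadjusted p below 0.05 (20.3% of all genes) and 1 called by DESeq2. The differences with their errors were 0.23 ± 0.11 for Ctsa, 0.38 ± 0.28 for Ctss, 0.50 ± 0.17 for Naglu and 1.20 ± 0.65 for Lyz2 on the log2 scale.

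Tacrolimus from 0 dpi gave a divided group. In WT-Tacr acute mice 14 members were higher and 0 lower than in non-stroked WT mice (6.18% of all genes were higher), 5 of them above 2-fold (2.28% of all genes), with a median log2 fold change of 0.34. Ctss was at 76.8, 51.7 and 241 CPM, Lyz2 at 20.0, 6.83 and 421 CPM, Cd68 at 17.9, 8.49 and 49.9 CPM, and Atp6v0d2 at 36, 0 and 349 counts in replicates 1, 2 and 3. Replicate 3 lay within or near the range of stroked WT mice for each of them, and replicates 1 and 2 lay far below it. Without replicate 3, 0 members were called by edgeR (0.18% of all genes were), the median was 0.15, and the log2 fold change of Lyz2 was 1.92 ± 0.51 (adjusted p = 0.117, edgeR). Replicate 1 was from the Imm2 cohort and replicates 2 and 3 from TF. With cohort as a covariate 0 members were called by edgeR (0.258% of all genes were higher).

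Against stroked WT mice, 0 members differed in WT-Tacr acute mice by edgeR (0% of all genes) and 0 by DESeq2, with 23 at an unadjusted p below 0.05 (12.7% of all genes) and the smallest adjusted p at 0.311. Without replicate 3, 20 members were lower and 0 higher, where 5.89% of all genes were lower. Among them were Ctss (log2 -1.79 ± 0.24, adjusted p = 0.000135, edgeR), Cd68 (-1.92 ± 0.35, adjusted p = 0.00154, edgeR) and Laptm5 (-1.19 ± 0.17). This split was chosen after the myeloid markers of the acute mice were seen, so its p-values are no test of the treatment. The myeloid markers of the same 2 mice, at 241 and 186 CPM, lay under the 576 CPM of the lowest stroked WT mouse, and how much of the lysosomal difference goes with them was not tested.

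Delayed against acute treatment gave 25 members higher and 0 lower in delayed mice (10.4% of all genes were higher), with 12 above 2-fold (5.22% of all genes). The smallest adjusted p were those of Naglu (log2 0.96 ± 0.19), Npc2 (0.95 ± 0.21), Laptm5 (1.0 ± 0.21) and Ctsa (0.56 ± 0.12), each at an adjusted p of 0.0102 by edgeR. Ctsa stood at 144, 165, 181, 146 and 181 CPM in delayed and at 101, 86.2 and 146 CPM in acute mice, and Naglu at 18.6, 21.6, 23.4, 17.7 and 25.8 CPM against 8.91, 7.62 and 16.5 CPM. Ctsa overlapped through replicate 3 of the acute group, and Naglu did not overlap. Without replicate 3, 29 members were higher (15.5% of all genes) and 3 lower, Neu1, Smpd1 and Mcoln1 (18.1% of all genes were lower). No member was called by edgeR when acute replicate 1 or 2 was left out, when only these 2 groups were fitted or within the TF cohort. All 9 myeloid markers, all 5 fibroblast markers and 3 of 5 choroid plexus markers were also higher in delayed than in acute mice, and 6 of 9 neuronal markers were lower, and their part in the lysosomal difference was not tested.

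**Figure D5:**
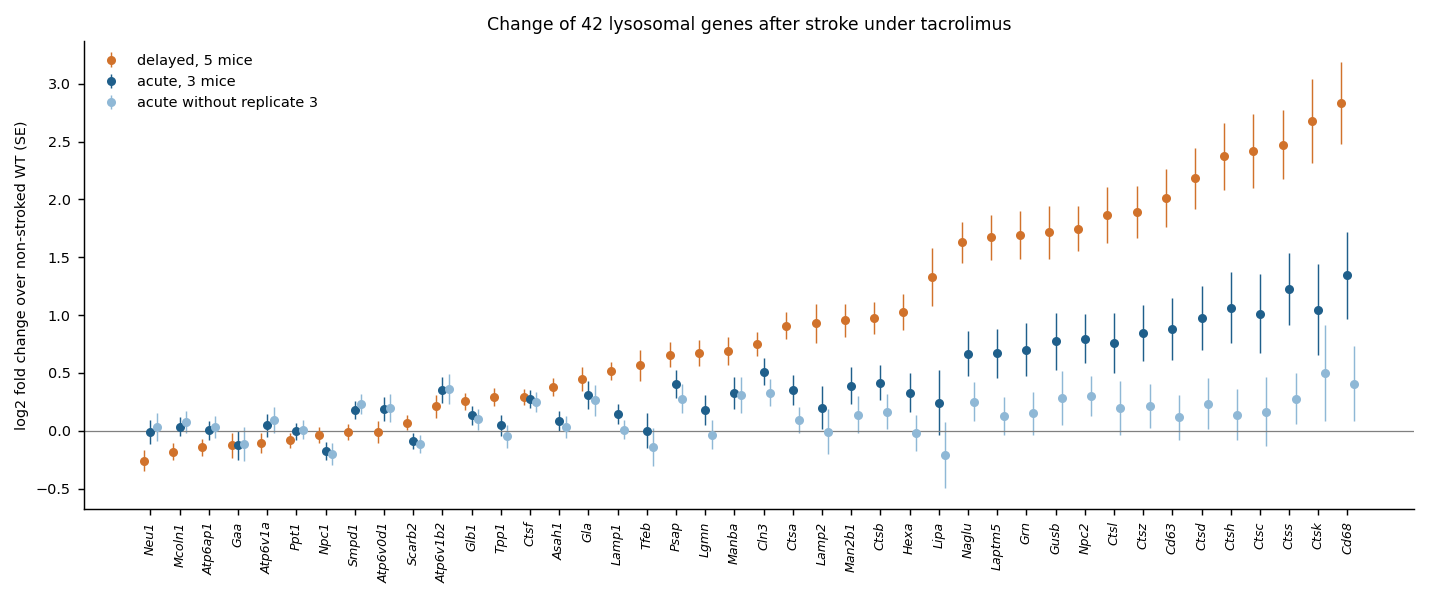
Log2 fold change against non-stroked WT mice for 42 lysosomal genes, all members but Atp6v0d2 and Lyz2, in WT-Tacr delayed mice, in WT-Tacr acute mice and in WT-Tacr acute mice without replicate 3. The median over all 44 members was 0.83 in delayed mice, 0.34 in acute mice and 0.15 in acute mice without replicate 3.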

How the data were processed

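The deposited values were raw counts of reads per Ensembl gene, 1 table per mouse, made by the authors from poly(A)-selected stranded libraries. The aligner, genome build and use of strand in counting are not given in the sources used here, so reads of overlapping genes on opposite strands, such as Ctsa and Pltp, may not be separated. No library pair was identical. Names and positions came from GENCODE M21 (GRCm38), in which 25635 of 25746 IDs had a symbol, and promoters from RefSeq (GRCm38.p6). Groups followed the sample labels and each file the sample it was deposited under, although 2 files, those of WT-Tacr acute replicates 1 and 2, carry names that differ from the sample titles. Each sample was taken as 1 mouse, which the labels do not state, so p-values measure the spread between samples.

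Counts were fitted in R 4.3.3 with edgeR 4.0.16 (TMM, filterByExpr, quasi-likelihood) in 1 model of 29 samples and 8 groups. P-values were adjusted by Benjamini-Hochberg over 17031 genes. The stroke responses of strains were compared as differences of differences. The standard error was the absolute log2 fold change divided by the square root of F. Atp6v0d2 and Tfec are given as ratios of counts with exact intervals, or as bounds against a floor of 3 counts, with scipy 1.17.1. Intervals and floors cover counting error only. On simulated counts for stroke in WT, 159 of 200 changed genes were recovered with 6 false calls, and for stroke in NSG, where none was changed, 0 were called.

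The members and lists were chosen with earlier results of these data known. Values by sample are printed for the 2 called members of each role with the largest change in WT, for up to 6 members with the smallest p between strains or treatments, and for Tfeb, Atp6v0d1 and Atp6v0d2. Of each list up to 3 called genes are named. Other genes were named after their values were seen. The lists hold other hydrolases, membrane proteins, pump subunits, mannose 6-phosphate sorting genes, cystatins, MiT/TFE and autophagy genes, osteoclast genes and markers of 13 cell types. Replicate numbers did not pair the non-stroked groups (correlations 0.11 for Rag2-/- and between -0.23 and 0.12 for NSG mice). Alternatives were RLE normalization, other filters, DESeq2 1.42.0, fits of the compared groups or of 1 cohort alone, cohort as a covariate, a replicate block and leaving out each sample.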

Additional observations from a re-analysis of the deposited data

Results flagged for a closer look

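In 64 groups of 4 or 5 mice tested for a sample far from the rest, 3 had one, where chance alone marks about 1 in 20. Ctsk in WT-Tacr delayed replicate 5 stood at 34.8 CPM, with the other 4 mice between 8.87 and 15.8 CPM. Naglu in non-stroked WT replicate 4 was at 7.85 CPM, with the others between 6.49 and 6.67 CPM, which remains below all stroked WT mice. Atp6v0d2 in non-stroked NSG replicate 2 was at 0.0254 CPM, a single read, with the other 3 mice at 0.

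The change after stroke differed between delayed and acute tacrolimus for 25 members at an adjusted p below 0.05 (edgeR with Benjamini-Hochberg adjustment). This difference depended on which acute mice entered, as described above.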

How the results depend on the processing

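Counts of members called are out of 44. With an absolute log2 fold change above 1 also required, the counts became 16 for stroke in WT, 5 in WT-Tacr acute, 18 in WT-Tacr delayed, 11 in Rag2-/- and 18 in NSG mice, 0 for non-stroked NSG against WT, and 12 for delayed against acute tacrolimus. Stroke in WT-Tacr acute mice gave 0 calls with cohort as a covariate, 0 when only the groups compared were fitted and 1 within the Imm2 cohort. Leaving out 1 sample gave 0 to 22 there (3 to 7 without any 1 non-stroked WT mouse, 22 without acute replicate 1, 0 without acute replicate 3), 13 to 22 for stroke in Rag2-/- mice, 2 to 4 for non-stroked NSG against WT, 0 to 20 for acute against WT, 0 to 3 for delayed against WT (1 and 3 without stroked WT replicates 3 and 4) and 0 to 32 for delayed against acute. Non-stroked NSG against WT gave 12 calls when only these groups were fitted (6 higher, 6 lower), 2 with a replicate block and 5 without the block on the same samples, a fit added after seeing the data. For non-stroked Rag2-/- against WT the replicate block gave 0. DESeq2 gave 1 call for delayed against WT. Delayed against acute gave 0 when only these groups were fitted and 0 within TF. The causes were not tested. Leaving out 1 sample gave 25 to 34 calls for stroke in WT, 34 to 35 in WT-Tacr delayed and 24 to 28 in NSG mice. RLE normalization turned the sign of no member in the stroke comparisons of WT, WT-Tacr delayed, Rag2-/- and NSG mice and of 2 uncalled members in WT-Tacr acute. Of 1125 alternative values of 80 called log2 fold changes, 959 kept the call and direction, 166 lost the call and 0 turned. Depth limited Atp6v0d2, whose fold rests on at most 2 counts over the non-stroked mice of a strain.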
